A study of Mus musculus with 12 samples.

Results

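The genes described here are 10 inhibitors of mitogen-activated protein kinase (MAPK) signalling. They comprise 7 dual-specificity phosphatases (Dusp1, Dusp4, Dusp5, Dusp6, Dusp8, Dusp10 and Dusp16), the Sprouty genes Spry2 and Spry4, and the Sprouty-related gene Spred1. They were taken by symbol, through the GENCODE mouse annotation, from the raw count table of 55414 Ensembl genes, and all 10 were among the 13857 genes that had enough counts to be tested. The counts came from RNAseq of whole livers of 12 female mice labelled C57Bl/6J, with no transgene or deletion in the labels, in 4 groups of 3 mice. Mice received 0.9% NaCl or 300 mg/kg FeSO4 and, 6 h afterwards, PBS or 10 mg/kg of the glucocorticoid dexamethasone (DEX), and livers were collected 2 h after that, at 8 h in total. NaCl/PBS mice thus received neither agent, NaCl/DEX mice DEX alone, FeSO4/PBS mice iron alone, and FeSO4/DEX mice iron followed by DEX.

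MAPKs are switched on by phosphorylation of a threonine and a tyrosine in their activation loop. A dual-specificity MAPK phosphatase removes the phosphate from both residues, and transcription of many of these phosphatases is itself raised by MAPK activity, so that they act as negative feedback. Sprouty and Spred proteins act further upstream, between receptor tyrosine kinases and the RAF kinases. Dusp1 is known as a gene that glucocorticoids induce, and through which they restrain p38 and JNK, the stress-activated MAPKs.

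All 10 genes are protein-coding, and their positions are those of GRCm39. The phosphatase genes are Dusp1 (chr17:26724564-26781102), Dusp4 (chr8:35274442-35287048), Dusp5 (chr19:53517532-53530862), Dusp6 (chr10:99086564-99103361), Dusp8 (chr7:141633226-141649580), Dusp10 (chr1:183745499-183807842) and Dusp16 (chr6:134692431-134784241). Spry2 lies at chr14:106128766-106136446 and Spred1 at chr2:116951524-117018277.

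The bases before the start of the canonical transcript were read from GRCm39 for 3 of the phosphatase genes, because these windows hold matches to a cAMP response element or a serum response element. Bases 100 to 15 before the start are shown 5′ to 3′ on the strand of the gene. For Dusp1 and Dusp8 this stretch lies inside the annotated gene, which extends further upstream than the canonical transcript. Capitals mark every match to a motif that was searched.
Dusp1 (chr17:26727508-26727593, minus strand): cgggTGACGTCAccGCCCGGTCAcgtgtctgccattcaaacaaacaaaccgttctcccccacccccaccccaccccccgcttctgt
Dusp8 (chr7:141649067-141649152, minus strand): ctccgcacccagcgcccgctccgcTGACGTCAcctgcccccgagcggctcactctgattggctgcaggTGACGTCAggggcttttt
Dusp5 (chr19:53517432-53517517, plus strand): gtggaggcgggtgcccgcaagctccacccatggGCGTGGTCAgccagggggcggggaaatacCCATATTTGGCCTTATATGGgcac
The Dusp1 stretch held the cAMP response element (CRE) TGACGTCA at -96 to -89 and, next to it, a match on the other strand to the antioxidant response element (ARE) core TGACNNNGC. The Dusp8 stretch held the same CRE at -76 to -69 and again at -32 to -25. In Dusp5, an ARE core match was followed by a pair of adjoining serum response elements (SRE, the CArG box that serum response factor binds) at -38 to -29 and -28 to -19.

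Each motif was searched on both strands of the 250 bases before the start, in the 10 genes and in the 13818 tested genes whose window could be read. The CRE was present in 2 of the 10 windows and in 1.9% of all windows. The ARE core was present in 3 of 10, those of Dusp1, Dusp5 and Spry2, and in 10.4% of all, and the SRE was present in 1 of 10 and in 1.2% of all. Neither the glucocorticoid response element (the half-sites GNACA and TGTNC with 3 bases between them), found in 0.275% of all windows, nor the AP-1 site TGANTCA, found in 4.84%, matched in any of the 10. For motifs this rare, the lack of a match in 10 windows says little about these genes, and bases outside the windows were not searched. These matches describe letters in these windows and no binding was measured. The windows of Dusp1, Dusp8 and Dusp5 were 70%, 69.2% and 65.2% G and C, against a median of 56% over all windows, and each stretch shown overlaps an annotated exon of a long noncoding RNA on the opposite strand.

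**Figure D1:**
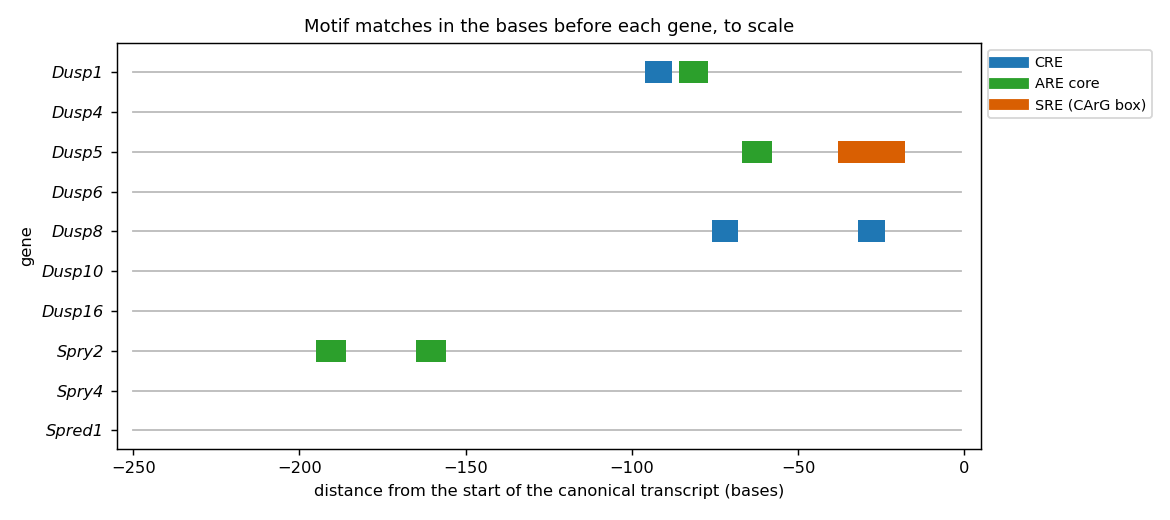
Matches to the searched motifs in the 250 bases before the start of the canonical transcript of each of the 10 genes. The x axis gives the distance from that start in bases, and the y axis has 1 line per gene. Matches are coloured by motif and are seen in Dusp1, Dusp5, Dusp8 and Spry2, with both CRE matches of Dusp8 and the adjoining SRE matches of Dusp5 close to the start.

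Total counts per library lay between 16335651 and 23827340. Each library was counted as 1 mouse, following the study's n = 3 per group. Libraries of the same group differed by more than sampling noise, which cannot by itself show that they came from different mice. The iron-responsive gene Hmox1 was higher after FeSO4 with a log2 fold change (LFC) of 6.02. Of the 4 glucocorticoid-responsive check genes, 3 (Fkbp5, Tsc22d3 and Sgk1, but not Per1) were higher after DEX in NaCl mice. After FeSO4 without DEX, 3 of these 4 genes (Fkbp5, Sgk1 and Per1) were called higher and 1 (Tsc22d3, LFC -1.86) lower. Among all tested genes, 27.2% were called higher and 27.3% lower. The genes that DEX raised in NaCl mice thus did not all move the same way after FeSO4. The study reported that serum corticosterone rose after FeSO4. Iron alone therefore means here that no DEX was injected. The summed hepatocyte markers, at 1851000 to 2825000 normalized counts, exceeded every other marker list in each library. The summed neutrophil markers were 111.7 to 288.9 normalized counts in NaCl/PBS livers and 74.5 to 112.8 in NaCl/DEX livers. They were higher in iron-treated livers, at 721.8 to 882 with PBS and 560 to 670.2 with DEX. The summed macrophage markers were 5188 to 6311 in NaCl/PBS livers and 2983 to 3413 in FeSO4/PBS livers. Other sums differed between these groups as well. Endothelial markers were 4843 to 5587 in NaCl/PBS and 3195 to 4675 in FeSO4/PBS livers. Stellate cell markers were 3948 to 4057 and 4148 to 5921, and cholangiocyte markers were 533.3 to 682.6 and 1068 to 1376. In bulk tissue, fewer cells of a type and less RNA per cell cannot be told apart.

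Levels are given as normalized counts, which are counts scaled by TMM factors to the mean effective library size, and levels of different genes are compared as normalized counts per kilobase of exon. On the per-kilobase scale, Dusp6 (189 ± 73.2, SD, n = 3) and Dusp1 (142 ± 78.7) were the most abundant of the 10 genes in NaCl/PBS livers, and the ranges of this pair overlapped. Dusp16 (86.7 ± 8.14), Spred1 (51.6 ± 4.54) and Spry4 (25.6 ± 5.75) followed, each with all 3 mice above those of the next gene. Dusp5 (10.9 ± 4.52) and Dusp10 (10.2 ± 2.93) overlapped, as did Dusp4 (5.34 ± 0.802) and Spry2 (3.86 ± 2.03), and Dusp8 had the lowest mean, 0.949 ± 1.16, with a range that overlapped that of Spry2. Dusp1 was the most abundant in each of the other groups, at 537 ± 49.3 after DEX alone, 731 ± 171 after FeSO4 alone and 720 ± 41.7 after FeSO4 and DEX, above Dusp6 in all mice. By mean, Dusp8 moved from the last place to the fifth, with 81.9 after FeSO4 alone (60.3 to 108 over the mice) and 81.5 ± 4.23 after FeSO4 and DEX, although its range overlapped that of Spred1 after FeSO4 alone and that of the next gene in both iron groups. Spry2 had the lowest mean in the other 3 groups.

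**Figure D2:**
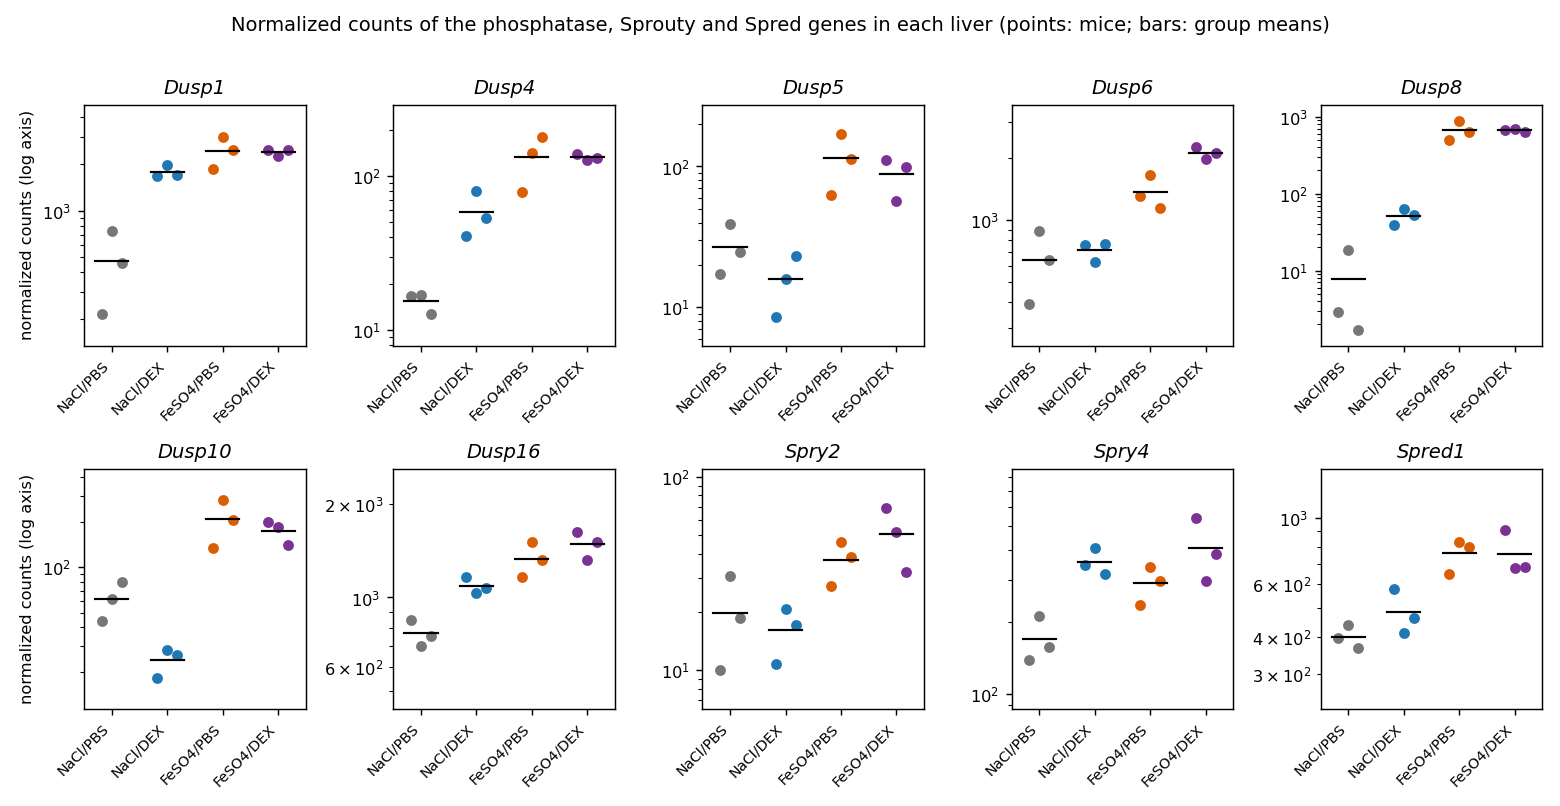
Normalized counts (y axes, log scale, 1 panel per gene) of the 10 genes in the 4 groups (x axes), with 1 point per mouse and a bar at each group mean. In FeSO4/PBS livers 9 of the 10 genes lie above all NaCl/PBS livers, whereas the NaCl/DEX livers lie above the NaCl/PBS livers for 5 genes and below them for Dusp10.

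To see how iron alone acted on these inhibitors, FeSO4/PBS livers were compared with NaCl/PBS livers. FeSO4 upregulated 9 of the 10 genes and downregulated 0 at an edgeR false discovery rate (FDR) of 0.05 or less, while 27.2% of all tested genes were called higher and 27.3% lower. At an unadjusted p under 0.05, reached by 59.6% of all tested genes in either direction, 10 of the 10 were higher and 0 were lower, and DESeq2 also called 9 higher and 0 lower. The median LFC of the 10 genes was 1.43, against -0.02 for all tested genes. In the same 9 genes every FeSO4/PBS liver was above every NaCl/PBS liver, a separation seen upward in 29% of all tested genes. With 3 mice against 3, an exact permutation test on a single gene cannot go below a p of 0.1, so that the tests given here are those of the edgeR model across all genes.

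Among the nuclear, inducible phosphatases, Dusp1 (MKP-1, which acts on p38, JNK and ERK) had 215, 738 and 459 normalized counts in NaCl/PBS mice and 1857, 2990 and 2444 in FeSO4/PBS mice. The lowest iron-treated liver had more than 2 times the level of the highest control. The LFC was 2.37 ± 0.31 (SE, edgeR FDR = 2.68e-05), a 5.18-fold difference. Dusp4 (MKP-2, which is also nuclear) had 16.5, 16.8 and 12.7 normalized counts in NaCl/PBS mice and 78.6, 140 and 180 in FeSO4/PBS mice. Its controls were tightly grouped and its iron-treated livers were not, yet all were well above the controls, with an LFC of 3.10 ± 0.33 (FDR = 4.22e-06). Dusp5, a nuclear phosphatase specific for ERK, had 17.3, 39.3 and 24.6 normalized counts in NaCl/PBS mice and 62.5, 170 and 114 in FeSO4/PBS mice. Its groups did not overlap, and the LFC was 2.11 ± 0.42 (FDR = 0.000754).

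Dusp6 (MKP-3), the cytoplasmic phosphatase that acts on ERK, had 393, 889 and 641 normalized counts in NaCl/PBS mice and 1310, 1665 and 1148 in FeSO4/PBS mice. The lowest iron-treated liver was above the highest control. The LFC was 1.10 ± 0.22 (edgeR FDR = 0.000909).

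The phosphatases that prefer JNK and p38 were Dusp8, Dusp10 (MKP-5) and Dusp16 (MKP-7). Dusp8 had 2.88, 18.7 and 1.69 normalized counts in NaCl/PBS mice, which were 4, 20 and 2 reads, and 493, 881 and 635 normalized counts in FeSO4/PBS mice. It went from nearly undetected to clearly expressed in every iron-treated liver. The LFC was 6.51 ± 0.44 (FDR = 7.79e-08), which is 91.0-fold, but its size rested on the second NaCl/PBS mouse and was 8.09 without it. Dusp10 had 43.9, 61.7 and 79.6 normalized counts in NaCl/PBS mice and 134, 283 and 208 in FeSO4/PBS mice, and the LFC was 1.76 ± 0.28 (FDR = 0.000146). Dusp16 had 844, 701 and 755 normalized counts in NaCl/PBS mice and 1166, 1508 and 1320 in FeSO4/PBS mice. Dusp16 showed the smallest relative difference of the phosphatases and the least spread between controls, with an LFC of 0.80 ± 0.12 (FDR = 0.000101).

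Of the inhibitors that act upstream of RAF, Spry4 had 138, 211 and 157 normalized counts in NaCl/PBS mice and 236, 339 and 297 in FeSO4/PBS mice. The groups were separate by a small margin, and the LFC was 0.79 ± 0.22 (edgeR FDR = 0.00853). Scaling by library size alone moved the median LFC of all tested genes by -0.32 in this comparison, and the LFC of Spry4 was then 0.47 (FDR = 0.107). Spred1, which brings the RAS-inactivating protein neurofibromin to the membrane, had 397, 438 and 367 normalized counts in NaCl/PBS mice and 651, 829 and 798 in FeSO4/PBS mice. All 3 iron-treated livers were above the controls, with an LFC of 0.92 ± 0.16 (FDR = 0.000208). Spry2 had 10.1, 30.9 and 18.6 normalized counts in NaCl/PBS mice and 27.2, 45.8 and 38.3 in FeSO4/PBS mice. These ranges overlapped through the second control mouse, and the LFC of 0.92 ± 0.42 was not called (FDR = 0.0801). Without that control mouse, the LFC of Spry2 was 1.38 (FDR = 0.022).

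The second NaCl/PBS mouse was the highest control for 8 of the 10 genes and for 35.9% of all tested genes, and its neutrophil marker sum was 288.9 normalized counts against 111.7 and 130.2 in the other controls. In the iron comparison, 4 of the 6 neutrophil markers were higher after FeSO4 (S100a8, S100a9, Cxcr2 and Retnlg), Csf3r was not called, and Ly6g had too few counts to be tested and was at 0 in 6 of the 12 libraries. Of the 6 macrophage markers, 5 were lower after FeSO4, where 27.2% of all tested genes were called higher and 27.3% lower. The part of these cells in the levels of the 10 genes was not tested. Leaving that mouse out, 10 of the 10 genes were called higher after FeSO4. Within FeSO4/PBS livers, the first mouse was the lowest for 9 of the 10 genes and the second was the highest for 9, against 39.2% and 30.2% of all tested genes. The median coefficient of variation of the 10 genes was 33.8% in NaCl/PBS livers, where that of all tested genes was 11.1%. It was 19.6% against 12.4% after DEX alone, 24.2% against 18.9% after FeSO4 alone, and 13.7% against 14.4% in FeSO4/DEX livers. The sets compared were not matched for level. In NaCl/PBS livers the coefficient of variation was 122% for Dusp8, at 2 to 20 reads, and 55.6% for Dusp1, at 299 to 789 reads.

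Next, the response to DEX without iron was taken from NaCl/DEX against NaCl/PBS livers. DEX upregulated 5 of the 10 genes (Dusp1, Dusp4, Dusp8, Dusp16 and Spry4), where 6.5% of all tested genes were called higher, and downregulated 1 of the 10 (Dusp10), where 7.15% were called lower. The same 6 genes had NaCl/DEX livers that did not overlap the NaCl/PBS livers, 5 upward (17.6% of all tested genes) and 1 downward (20.3%). The median LFC of the 10 genes was 0.39, against -0.02 for all tested genes. In this comparison 1 of the 6 neutrophil markers (Csf3r) and 0 of the 6 macrophage markers were called lower, and the part of these cells was not tested. The iron comparison used the same NaCl/PBS livers, so that the values of both are given side by side and were not tested for overlap.

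Dusp1 had 1681, 1974 and 1700 normalized counts in NaCl/DEX mice, all above the controls and with little spread. Its LFC was 1.93 ± 0.31 (edgeR FDR = 0.000766), beside 2.37 after FeSO4. Dusp4 had 40.8, 79.9 and 53.4 normalized counts, and its LFC was 1.91 ± 0.34 (FDR = 0.00175), beside 3.10 after FeSO4. Dusp8, at 38.6, 63.0 and 53.4 normalized counts, was also above all controls but far under the levels of the iron-treated livers. Its LFC was 2.82 ± 0.50 (FDR = 0.00173), and 4.42 without the second NaCl/PBS mouse. Spry4 had 346, 404 and 317 normalized counts, with an LFC of 1.08 ± 0.22 (FDR = 0.00475), beside 0.79 after FeSO4.

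Dusp16 had 1167, 1030 and 1070 normalized counts in NaCl/DEX mice, all above the controls. The LFC was 0.51 ± 0.12 (edgeR FDR = 0.0132). This call was lost at an FDR of 0.0549 without the second NaCl/PBS mouse, 0.0523 without the third, 0.0582 without the first NaCl/DEX mouse and 0.0887 with scaling by library size alone. Dusp10 was the only one of the 10 genes that DEX downregulated, with 18.2, 28.2 and 26.2 normalized counts, all below the controls. The LFC was -1.33 ± 0.33 (FDR = 0.0144), and the FDR was 0.0733 without the third NaCl/PBS mouse and 0.064 without the first NaCl/DEX mouse.

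DEX left 4 genes uncalled in NaCl mice, and the NaCl/DEX livers overlapped the controls in each of them. Dusp6 had 755, 626 and 769 normalized counts, with an LFC of 0.16 (95% interval -0.32 to 0.65). Dusp5 had 8.59 to 23.2 normalized counts with a median of 15.98, and an LFC of -0.73 (-1.77 to 0.30). Spry2 had 10.7, 20.7 and 17.1 normalized counts, with an LFC of -0.26 (-1.23 to 0.70). The intervals of Dusp5 and Spry2, the genes with the lower counts, were the wider ones. Spred1 had 580, 414 and 464 normalized counts, with an LFC of 0.28 (-0.06 to 0.61).

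**Figure D3:**
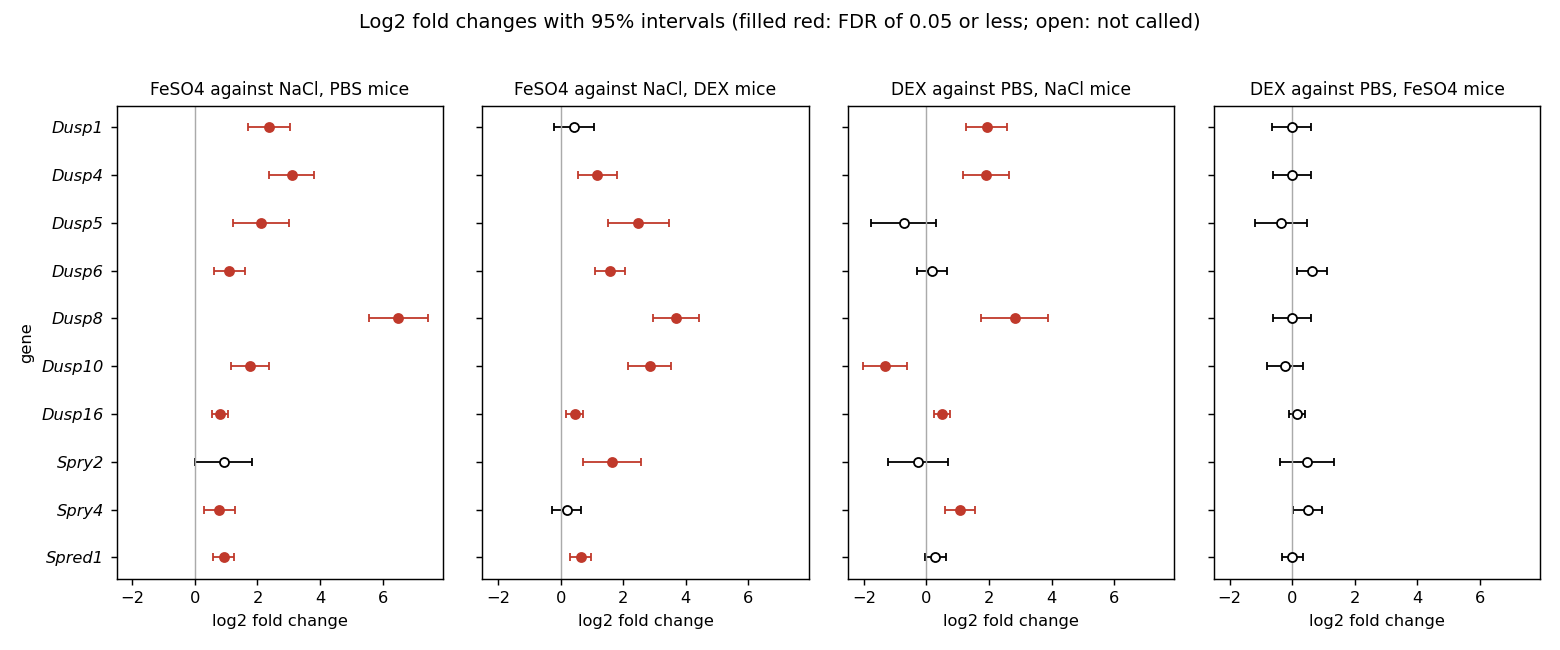
Log2 fold changes (x axes) with 95% intervals for the 10 genes (y axis) in 4 comparisons, 1 per panel, filled red at an FDR of 0.05 or less and open otherwise. The called genes number 9 and 8 in the FeSO4 panels and 6 in the panel for DEX in NaCl mice, and 0 in the panel for DEX in FeSO4 mice, where Dusp1, Dusp4, Dusp8 and Spred1 lie at 0.

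To study whether DEX acted on these genes in iron-treated mice, FeSO4/DEX livers were compared with FeSO4/PBS livers. None of the 10 genes was called by edgeR, and 0% of all tested genes were. At an unadjusted p under 0.05, 2 of the 10 genes were higher and 0 lower, against 6.49% of all tested genes in either direction. DESeq2 called 5 genes higher and 6 lower of all those tested, and none of the 10. The median LFC of the 10 genes was -0.0024.

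The genes with the largest LFCs for DEX in NaCl mice were within the range of FeSO4 alone. Dusp1 had 2475, 2233 and 2472 normalized counts in FeSO4/DEX mice, within the range of the FeSO4/PBS mice. Its LFC was -0.02 with a 95% interval of -0.66 to 0.61. Dusp4 had 138, 126 and 131 normalized counts, and Dusp8 had 677, 695 and 628, again within the FeSO4/PBS ranges. Their LFCs were -0.00 (-0.61 to 0.60) and -0.01 (-0.63 to 0.61), and the upper ends of these 3 intervals lie below the lower ends of the intervals for DEX in NaCl mice, which were 1.26 for Dusp1, 1.18 for Dusp4 and 1.74 for Dusp8.

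Dusp6 was the 1 gene of the 10 whose FeSO4/DEX livers did not overlap the FeSO4/PBS livers. It had 2268, 1997 and 2133 normalized counts in FeSO4/DEX mice, all above the 1148 to 1665 of the FeSO4/PBS mice, a separation seen upward in 4.45% of all tested genes. The LFC was 0.63 ± 0.22 (95% interval 0.16 to 1.11), with an unadjusted p of 0.0126 and an edgeR FDR of 0.709. Without a filter on low counts, where 99 genes were called higher and 71 lower of 25013, the LFC of Dusp6 was 0.62 (FDR = 0.00316). Spry4 had 543, 295 and 382 normalized counts, which overlapped the FeSO4/PBS mice through the second FeSO4/DEX mouse. Its LFC was 0.49 (0.02 to 0.96), with an unadjusted p of 0.0413 and an FDR of 0.762.

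The other 5 genes overlapped between FeSO4/DEX and FeSO4/PBS livers. Dusp10 had 200, 186 and 140 normalized counts in FeSO4/DEX mice, with an LFC of -0.24 (95% interval -0.82 to 0.33). Dusp5 had 111, 57.1 and 98.7 normalized counts, with an LFC of -0.36 (-1.19 to 0.47). Dusp16 had 1616, 1320 and 1504 normalized counts, with an LFC of 0.15 (-0.11 to 0.41). For these 3 phosphatases the intervals allow changes of either sign. Spry2 had 68.6, 51.6 and 32.1 normalized counts, with an LFC of 0.46 (-0.40 to 1.33). Spred1 had 910, 681 and 684 normalized counts, with an LFC of -0.00 (-0.33 to 0.33).

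Whether the DEX effect differed between FeSO4 and NaCl mice was tested as an interaction in the same model. It was smaller in FeSO4 mice for 3 of the 10 genes (Dusp1, Dusp4 and Dusp8) and larger for 0, with 3.2% of all tested genes called lower and 2.99% higher. The difference between the DEX effects was -1.95 ± 0.42 for Dusp1 on the log2 scale (SE, edgeR FDR = 0.014). It was -1.92 ± 0.44 for Dusp4 (FDR = 0.0194) and -2.83 ± 0.59 for Dusp8 (FDR = 0.0107). The Dusp4 call was lost at an FDR of 0.0597 without the third NaCl/PBS mouse and 0.0566 without the second NaCl/DEX mouse, and the Dusp8 difference was -4.43 (FDR = 0.00032) without the second NaCl/PBS mouse. At an unadjusted p under 0.05, reached by 20.4% of all tested genes, 4 of the 10 were found, the 3 lower genes above and Dusp10, which was higher with a difference of 1.09 ± 0.42 (FDR = 0.159).

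Dusp10, which DEX lowered in NaCl mice and which was not called in FeSO4 mice, was therefore not shown to respond differently, and the FDR of its difference was 0.0347 without a filter on low counts. The DEX effects on Spry4 and Dusp16 were called in NaCl mice and not in FeSO4 mice as well, but their differences were -0.59 (95% interval -1.25 to 0.08, FDR = 0.307) and -0.35 (-0.72 to 0.02, FDR = 0.267). For the other 4 genes the differences lay between -0.28 for Spred1 and 0.72 for Spry2, with an FDR of 0.439 or more.

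Finally, the effect of iron in mice that also received DEX was taken from FeSO4/DEX against NaCl/DEX livers. FeSO4 upregulated 8 of the 10 genes, where 22.4% of all tested genes were called higher, and downregulated 0, where 20.9% were called lower. At an unadjusted p under 0.05, reached by 51.1% of all tested genes, 8 of the 10 were higher and 0 lower, and DESeq2 gave the same counts of 8 and 0. The median LFC was 1.38, against 0.01 for all tested genes, and 9 of the 10 genes had FeSO4/DEX livers above all NaCl/DEX livers (28.8% of all tested genes). The largest LFCs were those of Dusp8 (3.68 ± 0.34, edgeR FDR = 1.99e-06), Dusp10 (2.85 ± 0.32, FDR = 9.11e-06) and Dusp5 (2.48 ± 0.45, FDR = 0.000592). Spry2, which was not called in PBS mice, was upregulated with an LFC of 1.64 ± 0.43 (FDR = 0.00706), although its iron effects with and without DEX were not shown to differ (interaction FDR = 0.547). Dusp6, Dusp4, Spred1 and Dusp16 had LFCs of 1.57, 1.18, 0.64 and 0.44, and that of Dusp16 was 0.25 (FDR = 0.143) with scaling by library size alone.

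Dusp1 and Spry4 were the genes without a call for iron in DEX mice. All FeSO4/DEX mice had more Dusp1 (2233 to 2475 normalized counts) than all NaCl/DEX mice (1681 to 1974), but the LFC was 0.42 with a 95% interval of -0.21 to 1.06 (edgeR FDR = 0.268). In a fit of only those 6 libraries, the LFC of Dusp1 was 0.41 and was called (FDR = 0.00932). Spry4 overlapped between these groups, with an LFC of 0.20 (-0.27 to 0.66, FDR = 0.489). For both genes, DEX alone and iron alone each gave higher levels than NaCl/PBS.

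Across the 12 libraries, the 10 genes rose and fell together to differing degrees. Pearson's r of log2 CPM was positive for all 45 pairs, from 0.18 to 0.95 with a median of 0.77, and since the libraries share their groups this describes mainly the group levels. After group means were removed, r lay between -0.2 and 0.86 with a median of 0.48, and 40 of 45 pairs were positive. The 45 pairs share the same 10 genes and 12 livers. The r of pairs of other genes was not taken, so these values cannot show a trait particular to the set. The genes outside the set whose profiles were most like a member were, for Dusp1, Map3k6 (r = 0.973), Gadd45g (0.964) and Errfi1 (0.963). For Dusp6 they were Fos (0.966), Slc25a25 (0.954) and Fosl2 (0.946), and for Dusp8 they were Gde1 (0.991), Adcy1 (0.991) and Cebpd (0.989). The closest profiles were Chic2 for Dusp4 (0.984), Cda for Dusp10 (0.985), Rpusd2 for Dusp5 (0.957), Eif2ak4 for Dusp16 (0.976), Prrg4 for Spry2 (0.942), Lrrc8c for Spry4 (0.958) and Dhx15 for Spred1 (0.976).

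The other genes of the pathway were read from lists of the cascade's parts. The shares of all tested genes were 27.2% higher and 27.3% lower after FeSO4, and 6.5% and 7.15% after DEX in NaCl mice. Of the other Sprouty and Spred genes, 2 of 3 tested were upregulated by FeSO4, Spry1 (LFC 1.33 ± 0.23, edgeR FDR = 0.000249) and Spred2 (1.12 ± 0.21, FDR = 0.000453), and 0 were called after DEX in NaCl mice. Of the remaining typical MAPK phosphatases, 0 of 2 tested were higher and 1 was lower in each of these comparisons. Dusp7, a cytoplasmic ERK phosphatase, fell from 93.9 ± 15.4 normalized counts (SD, n = 3) in NaCl/PBS to 42.2 ± 11.8 in FeSO4/PBS (LFC -1.16, FDR = 0.00117) and 43.1 ± 6.39 in NaCl/DEX livers (-1.12, FDR = 0.00655). Dusp2 was not called in either comparison, and Dusp9 had too few counts to be tested. Of the atypical dual-specificity phosphatases, many of which have substrates other than MAPKs, 1 of 8 tested was higher and 4 were lower after FeSO4. Dusp14 was the higher one (2.06 ± 0.36, FDR = 0.000308) and was also higher after DEX in NaCl mice (3.15 ± 0.36, FDR = 5.03e-05), whereas Dusp19 (-1.98) and Dusp12 (-1.61) were among those lower after FeSO4.

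Other inhibitors of receptor tyrosine kinases and RAS were mostly uncalled after FeSO4, with 2 of 10 higher and 1 lower. Among all tested genes, 27.2% were higher and 27.3% lower after FeSO4, and 6.5% and 7.15% after DEX in NaCl mice. Cblb, a ubiquitin ligase for activated receptors (LFC 1.75 ± 0.23, edgeR FDR = 2.56e-05), and Errfi1, which inhibits the EGF receptor (1.44 ± 0.21, FDR = 7.49e-05), were higher, and the RAS GTPase-activating gene Rasa1 was lower (-0.65 ± 0.14, FDR = 0.00112). In NaCl mice, DEX raised Errfi1 (1.00 ± 0.21, FDR = 0.00613) and lowered Lrig1 (-0.94) and Lrig3 (-0.82), the other 7 of the 10 being uncalled. Errfi1 was thus called in the same direction as Dusp1 after each agent.

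Among growth factor ligands, 5 of 10 tested were higher and 2 lower after FeSO4, and the EGF-family ligands Hbegf (LFC 2.31 ± 0.38, edgeR FDR = 0.000165) and Btc (2.08 ± 0.33, FDR = 0.000144) and the hepatokine Fgf21 (3.61 ± 0.73, FDR = 0.000884) were among the higher ones. Of 10 receptor tyrosine kinases, 2 were higher and 6 lower, with Egfr at 0.95 ± 0.20 (FDR = 0.00101) and Erbb3 at -1.42 ± 0.24 (FDR = 0.000223). In the RAS-ERK cascade itself, 8 of 19 were higher and 4 lower, all within an LFC of -1.57 (Rps6ka1) to 0.67 (Braf). The counts of these lists stand beside 27.2% of all tested genes higher and 27.3% lower after FeSO4. For DEX in NaCl mice those shares were 6.5% and 7.15%. After DEX in NaCl mice, 1 ligand was higher (Fgf1, 1.00) and 1 lower (Pdgfa, -0.95), 0 receptors were higher and 3 lower, and 1 cascade gene was higher (Grb2, 0.57) and 2 lower (Ksr1, -1.08, and Rps6ka1, -0.70).

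In the JNK and p38 cascade, 10 of 24 tested genes were higher and 2 lower after FeSO4, where 27.2% and 27.3% of all tested genes were. After DEX in NaCl mice, 6 were higher and 3 lower, where 6.5% and 7.15% of all tested genes were. Gadd45b, a gene of this list, rose after each agent (LFC 4.80 ± 0.53 and 4.34 ± 0.52, edgeR FDR = 5.46e-06 and 8.22e-05), with 383 to 2521 normalized counts over the FeSO4/PBS livers. The kinase gene Map3k6 also rose after each agent (4.17 ± 0.34 and 2.64 ± 0.34, FDR = 4.2e-07 and 0.000133). Gadd45g did so too, with an LFC of 3.76 for FeSO4 (FDR = 0.000147) and 3.44 ± 0.60 for DEX in NaCl mice (FDR = 0.00142). Gadd45a rose after FeSO4 (3.94 ± 0.29, FDR = 1.74e-07) and was lower with DEX in NaCl mice (-1.63 ± 0.33, FDR = 0.00423).

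Of 14 tested transcripts listed as ERK-dependent, 10 were higher and 1 lower after FeSO4, where 27.2% and 27.3% of all tested genes were. After DEX in NaCl mice, 1 was higher and 3 were lower, where 6.5% and 7.15% of all tested genes were. Whether these transcripts depended on ERK in these livers was not tested. Fosl1, at 0 to 1 read in NaCl/PBS livers, had 264 ± 29.6 normalized counts (SD, n = 3) in FeSO4/PBS livers, and Fosb (LFC 4.60 ± 0.99, edgeR FDR = 0.0014) and Plaur (3.97 ± 0.38, FDR = 1.42e-06) were also among the higher ones. Ccnd1 went the other way, from 3330 ± 712 normalized counts in NaCl/PBS to 963 ± 108 in FeSO4/PBS livers. Among the transcripts for which these groups overlapped were Phlda1 (1225 ± 378 and 1021 ± 284) and Etv5 (64.5 ± 5.92 and 64.7 ± 25.9). Egr1 overlapped as well, with 498.6 to 1314 normalized counts in NaCl/PBS and 1079 to 3231 in FeSO4/PBS livers. DEX lowered Junb (-3.31 ± 0.36, FDR = 4.11e-05) and Egr1 (-1.52 ± 0.41, FDR = 0.0229) and raised Myc (2.37 ± 0.30, FDR = 0.000126). The median LFC of this list was 1.81 for FeSO4 in PBS mice and -0.38 for DEX in NaCl mice, beside 1.43 and 0.39 for the 10 inhibitors.

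**Figure D4:**
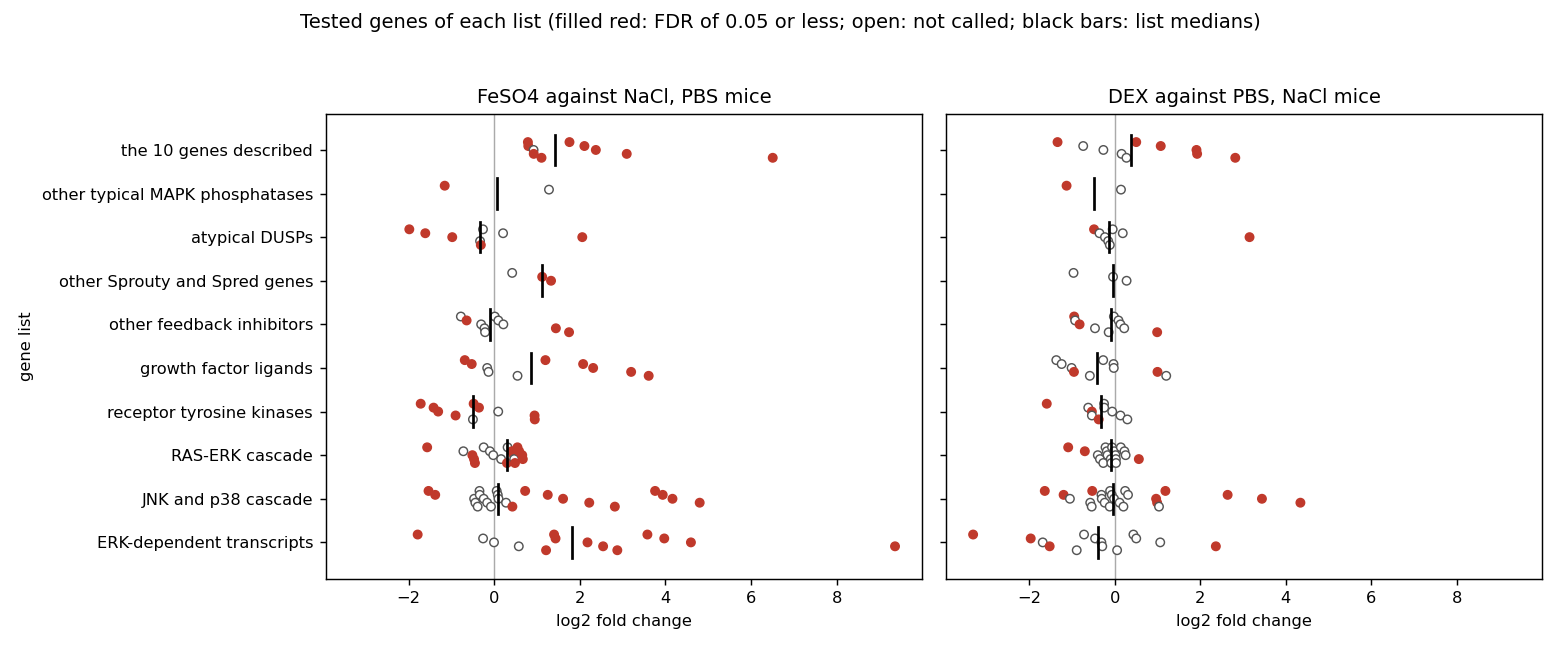
Log2 fold changes (x axes) of every tested gene in the 10 described genes and in 9 lists of the MAPK pathway (y axis), for FeSO4 in PBS mice (left) and DEX in NaCl mice (right), with genes at an FDR of 0.05 or less filled red and black bars at list medians. After FeSO4 the 10 genes, the other Sprouty and Spred genes and the ERK-dependent transcripts have medians of 1.43, 1.12 and 1.81, and after DEX those medians are 0.39, -0.04 and -0.38.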

How the data were processed

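RNAseq of 12 livers was analysed. According to the study's methods and the labels, the authors isolated total RNA, prepared stranded mRNA libraries, sequenced single-end reads, mapped them to mm39 with STAR 2.7.10b and counted reads per gene. They deposited raw, unnormalized counts for 55414 Ensembl genes. Which strand column was taken is not given in the sources used here, and 7 of the 10 genes overlap exons of a gene on the opposite strand, so that reads from such pairs may be mixed. GENCODE vM39 (GRCm39) gave a symbol for 54749 of them.

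From these counts, all 12 libraries entered 1 edgeR 4.0.16 quasi-likelihood model (R 4.3.3) with a mean per group, TMM factors and edgeR's filter on low counts, which kept 13857 genes. P-values were Benjamini-Hochberg adjusted over these genes (FDR), and genes at 0.05 or less were called. LFCs used a prior count of 0.125. The biological coefficient of variation was 0.169. The model was also run on counts simulated with its own dispersions, with far fewer changed genes than here and no DEX effect. That run cannot show how reliable the calls given here are. DESeq2 1.42.0, other scalings and filters, a minimum LFC of 1, the replicate number as a block and leaving out each library were alternatives. Per-kilobase levels used the union of annotated exons. Totals of 16335651 to 23827340 counts give ample depth for most genes, so that the number of mice limits the precision.

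The 10 genes and the lists were chosen with earlier results of these data known. Named pathway genes were up to 3 per list with the largest called LFC after FeSO4 and up to 3 after DEX in NaCl mice, with a mean of at least 50 normalized counts in the higher group, and the 3 tested genes with the highest r for each of the 10. Promoter bases were read from GRCm39 up to the start of the canonical transcript. The labels number replicates in every group, but the deviations of libraries with the same number from their group means correlated at -0.092 to 0.13 over 18 pairs, so the numbers were not taken as pairs. The position of Spry4 and the bases before it are not reported here.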

Additional observations from a re-analysis of the deposited data

Results flagged for a closer look

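The response to DEX differed between FeSO4 and NaCl mice, by the interaction test, for 3 of the 10 genes and for 14 other named genes. The values that follow are the log2 effect of DEX in FeSO4 mice minus that in NaCl mice. The difference was -1.95 for Dusp1, -1.92 for Dusp4 and -2.83 for Dusp8. It was also negative for Dusp14 (-3.08), Gadd45b (-3.07), Gadd45g (-2.87), Map3k6 (-2.66) and Grb2 (-0.66), and for the glucocorticoid-responsive check genes Fkbp5 (-2.43), Sgk1 (-1.72) and Tsc22d3 (-1.44). All of these were higher after DEX in NaCl mice. The difference was positive for Junb (3.13), Gadd45a (2.09), Erbb3 (1.75), Pdgfa (1.54), Lrig1 (0.91) and Fgfr4 (0.57), which were lower after DEX in NaCl mice. Over all tested genes, 3.2% were called lower and 2.99% higher in this test. Many of the other named genes were picked for a large called LFC after DEX in NaCl mice, which is part of this difference. Their number and the opposite signs therefore follow in part from how they were picked. These genes are also not independent of one another, because every difference used the same 12 livers.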

How the results depend on the processing

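Of 930 single-gene values under the alternatives, 915 kept their side of the threshold, 10 lost a call, 5 gained one and 0 called values reversed. Among the 915 were 20 values that were not called in either setting and changed sign. The count of the 10 genes moved by over 1.5 times in 3 results. Without a filter on low counts, 1 gene was higher for DEX in FeSO4 mice (Dusp6) and 1 was higher in the interaction (Dusp10), and the 1 gene lower after DEX in NaCl mice became 0 without the third NaCl/PBS or the first NaCl/DEX mouse. Iron in DEX mice gave 9 genes higher, Dusp1 included, without that filter or with only its own libraries fitted. Leaving out each mouse gave 9 to 10 genes higher for iron in PBS mice, 4 to 5 higher and 0 to 1 lower for DEX in NaCl mice, 8 to 8 higher for iron in DEX mice and 2 to 3 lower in the interaction, and 0 to 0 for the other counts. The 9, 5 and 8 genes higher became 8, 4 and 7 with scaling by library size alone, and 6, 4 and 6 with a minimum LFC of 1. With at least 10 counts required in every library, Dusp8 and Dusp5 were not tested and 7, 4 and 6 genes were higher. With the replicate number as a block, 9, 5 and 8 genes were higher and 3 were lower in the interaction, and no call among the 10 genes changed. The causes of these moves were not tested. Depth limits Dusp8, Spry2, Dusp4 and Dusp5 most, since each had under 50 normalized counts in every NaCl/PBS liver.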
